A study of Balaenoptera physalus with 6 samples.

Results

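The sites described here are cytosines listed in the CHH context, where H is any base but G, and were read in fin whale (Balaenoptera physalus) skin. The authors listed 3216 CHH sites as different between skin with a high and skin with a low concentration of organochlorine contaminants (OC). Of these, 1845 sites (57.4%) had a mean methylation level under 50% over the 6 samples and no other listed CHH site within 50 bases on the same strand, and they are called isolated low CHH sites below. The levels of all 6 samples and the authors' contrast of high against low OC thus chose the sites, so their levels, differences and directions are a description and were not tested. The study had 3 skin samples labelled high OC and 3 labelled low OC, read by reduced representation bisulfite sequencing, in which the enzyme MspI cuts at CCGG and bisulfite converts unmethylated cytosine. The context is as deposited, and neither the base sequence of these samples nor the completeness of conversion was checked here. Skin tissue holds many cell types, so shifts in the make-up of cells and shifts within cells cannot be told apart. The titles carry the prefix BPT for high OC and BPL for low OC, so what the prefixes mark cannot be told apart from contaminant load. The labels do not state whether each sample is a separate animal.

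In mammals most DNA methylation sits at CpG, where the maintenance enzyme DNMT1 and its partner UHRF1 copy it to the new strand after replication. CHH sites have no matching cytosine on the other strand, and their methylation is placed by the enzymes DNMT3A and DNMT3B. It is best known from neurons, oocytes and embryonic stem cells and is low in most other tissues, skin included.

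CHH sites that were not selected for a difference were analysed here only on the first part of 1 scaffold, so they give no background for the whole genome. The 662 sites lay on NW_006724458_1 between starts 51518 and 691325, a stretch that held 0 of the 1845 sites, and their levels were close to 0. Positions are printed as deposited, on a genome build not given in the sources used here. At its 304 sites where no sample had fewer than 10 reads, the high OC samples averaged 0.842%, 0.668% and 1.23% and the low OC samples 0.602%, 0.951% and 0.822%. The groups overlapped. Their means were 0.912% ± 0.286 (SD, n = 3) for high and 0.792% ± 0.176 (SD, n = 3) for low OC, and the exact two-sided permutation p was 0.6, where 3 samples against 3 cannot go below 0.1. Without high OC replicate 3 the difference of 0.121 points turned to -0.0367 points (exact permutation p = 0.9). Of all values on this stretch 12.1% were above 0, and 8.46% rested on exactly 1 methylated read. Only 5 sites (0.755%) had a mean of at least 5%.

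Of the isolated low CHH sites, 939 were higher in high OC skin and 906 lower. The share of higher sites was 50.9%. It ranged from 47.7% to 52.9% when 1 sample was left out and only the sites still within the authors' limits were counted. On the unselected stretch the authors' deposited table called 0 of 662 sites, 0% higher and 0% lower, which allows a share of up to 0.453% by the limit of 3 counts. The sites lay on 254 scaffolds, at most 60 on any of them, with 936 on the plus and 909 on the minus strand. At the sites listed as higher, the high OC samples averaged 15.9%, 16.4% and 16.1%, and the low OC samples 1.54%, 1.95% and 1.88%. At the sites listed as lower, the high OC samples averaged 1.8%, 1.71% and 1.79%, and the low OC samples 16.4%, 16.7% and 16.5%. The samples of a group were nearly level with each other in each set, and the 2 sets mirrored each other. Choosing sites by this contrast and averaging over many of them favours both. The groups did not overlap at 1839 of the 1845 sites, as the choice of sites by this contrast all but requires. On the unselected stretch this held for 0.151% of sites. With both sets pooled, high OC samples averaged 9.09% ± 0.0937 (SD, n = 3) and low OC samples 9.03% ± 0.181 (SD, n = 3).

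**Figure D1:**
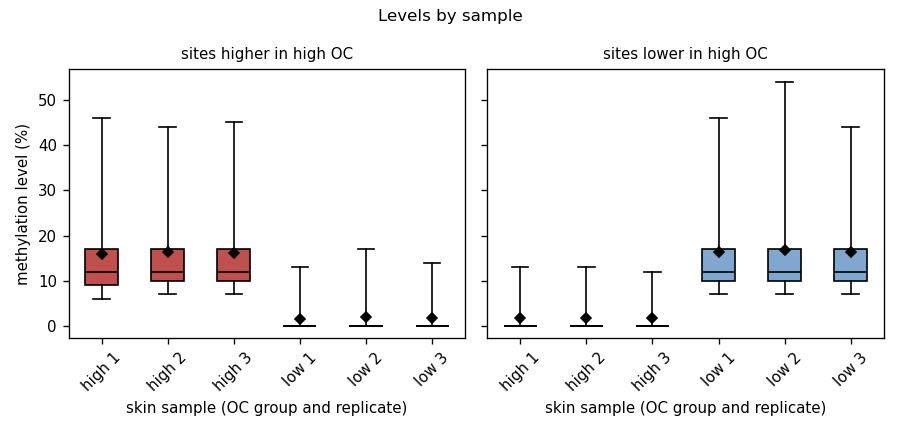
Methylation level (%, y axis) of the isolated low CHH sites in each of the 6 skin samples (x axis), for the 939 sites higher in high OC on the left and the 906 lower on the right. Boxes span the quartiles with the median as a line, whiskers run from the 5th to the 95th percentile over sites, and diamonds are means, near 16% in the samples of the higher group and under 2% in the others.

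Most of these sites had a low mean level over both groups together. High OC skin alone averaged 16.1% at the sites listed as higher, and low OC skin 16.5% at those listed as lower. The mean over the 6 samples ran from 5% to 49.8%, with a median of 6.17% and an upper quartile of 7.67%. A difference of at least 0.1 between the groups, as at all listed sites, by itself sets the lower end near 5%. From 5% to under 10% there were 1594 sites, from 10% to under 20% there were 102, and the bands of 10 points above held 40, 51 and 58. The absolute difference between the groups had a median of 12 points and quartiles of 10.7 and 14.3 points, and 1653 sites differed by less than 20 points. Differences of at least 50 points were found at 27 sites. The authors' deposited table classed 39 sites as strongly higher and 45 as strongly lower.

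**Figure D2:**
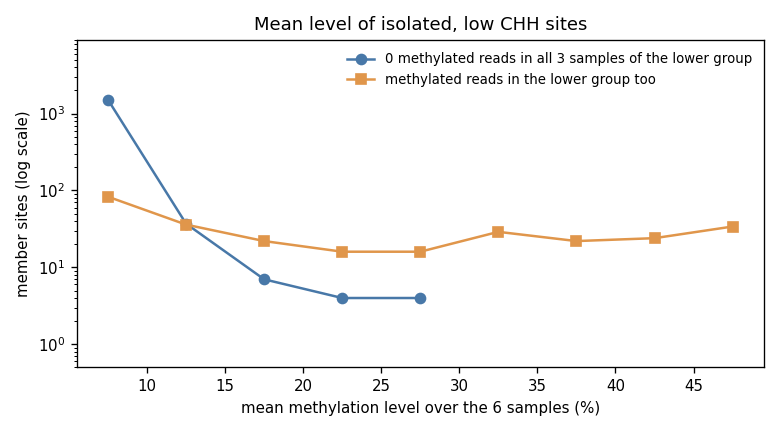
Number of isolated low CHH sites (y axis, log scale) by mean methylation level over the 6 samples (x axis, %, points at the middle of bands 5 points wide). Sites with 0 methylated reads in all 3 samples of the lower group number 1511 of the 1594 between 5% and 10%, and sites with methylated reads in both groups make up all of the bands from 30% to 50%.

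Few methylated reads stood behind each site. The lower group, that is the group with the lower mean at a site, had 0 methylated reads in all 3 samples at 1563 sites (84.7%), 811 among those listed as higher and 752 among those listed as lower. Every site had at least 1 methylated read in each sample of its higher group. At 803 sites (43.5%) each sample of the higher group held exactly 1 methylated read, and at 773 of these the lower group held none. The methylated reads of the higher group summed to a median of 4, with quartiles of 3 and 6, out of a median of 31 reads. In only 84 sites did each sample of the higher group hold at least 5. A level of 1 read in 10 has an exact 95% binomial interval of 0.253% to 44.5%, and 0 methylated reads among 32, the median sum of the lower group, allow a level of up to 9.38% by the limit of 3 counts. The exact intervals of the summed reads of the groups overlapped at 1661 sites (90.0%) and stood apart at 184. These intervals take each read as independent and cover counting error only. They are too narrow wherever a read was counted more than once. Since this contrast chose the sites, intervals that stood apart support nothing further.

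**Figure D3:**
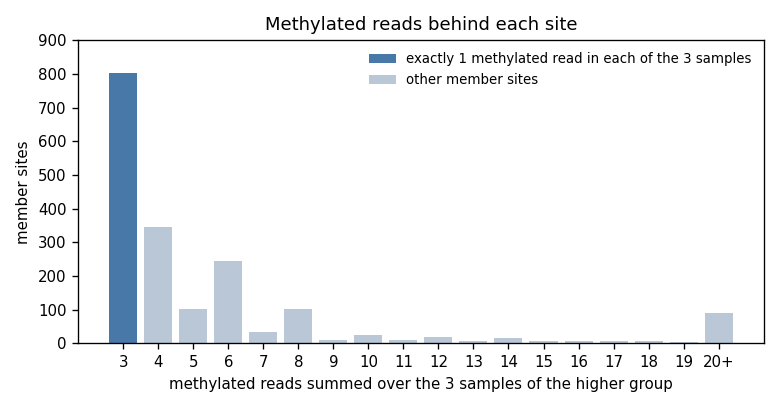
Number of isolated low CHH sites (y axis) by the methylated reads summed over the 3 samples of the higher group (x axis, reads). The bar at 3 reads holds the 803 sites with 1 methylated read in each sample, and the bars at 6 and 8 reads stand above their neighbours at 5 and 7.

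Even read counts were frequent. At 263 sites (14.3%) the coverage was even in all 6 samples, and so it was at 12.5% of unselected CHH sites. Of the methylated counts above 0 there, 92.5% were even, against 28.0% at the other sites, and 126 of these sites had exactly 2 methylated reads in each sample of the higher group. The part of even counts in the levels and depths was not tested, nor whether reads at these sites were counted more than once.

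No sample had fewer than 20 reads at 46 of the sites. These were lower in high OC skin at 28 and higher at 18, and the lower group was at 0 in all samples at 18. The coverage was even in all 6 samples at 20 of the 46, among them the sites in CSMD1, DCAF11, BARX1 and FRK. The 46 sites had a median absolute difference of 12 points, the same as that of all 1845 sites. Of the 46, 30 had no gene and 24 had a mean of at least 10%, against 251 of all sites. The sites of this set that are named next were picked for their depth and gene after their values had been seen.

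AHRR encodes the repressor of the aryl hydrocarbon receptor, the receptor through which dioxin-like organochlorines induce detoxifying enzymes, and it held a pair of these deeply covered sites, both in introns on scaffold NW_006731234_1. At start 12819462 on the plus strand the high OC samples stood at 62%, 87% and 55%, and the low OC samples at 24%, 15% and 46%. All high OC samples were above all low OC samples, at 68% ± 16.8 (SD, n = 3) against 28.3% ± 15.9 (SD, n = 3), over 26 to 44 reads. At start 12788313 on the minus strand the high OC samples stood at 44%, 26% and 46%, and the low OC samples at 5%, 16% and 11%. The groups were apart here as well, at 38.7% ± 11 (SD, n = 3) against 10.7% ± 5.51 (SD, n = 3), over 25 to 48 reads. Both sites were listed as higher, and each had a listed CpG close by with the same direction. The CpG 33 bases from the first had means of 84.7% ± 2.52 (SD, n = 3) for high and 58% ± 13.5 (SD, n = 3) for low OC, over the same range of 26 to 44 reads. The CpG 11 bases from the second had 38.3% ± 8.14 (SD, n = 3) for high and 18.7% ± 8.50 (SD, n = 3) for low OC. Its coverage was only 12 to 24 reads, against 25 to 48 at the CHH site. A listed CHG site on the other strand, 14 bases from the first, had 53.3% ± 21.4 (SD, n = 3) for high and 18% ± 6.56 (SD, n = 3) for low OC. Of the 10 listed CpG sites of AHRR, 8 were higher and 2 lower. Of 26 genes of xenobiotic metabolism only AHRR held an isolated low CHH site. Among all protein-coding symbols that are not LOC names, 4.73% held one.

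Deep sites in other genes were mostly lower in high OC skin. CSMD1, a large membrane protein that restrains complement, held a site in an exon at start 3201494 of NW_006729679_1. Its levels were 9%, 13% and 5% in high OC and 40%, 50% and 38% in low OC skin, over 20 to 44 reads. The groups were well apart, at 9% ± 4 (SD, n = 3) against 42.7% ± 6.43 (SD, n = 3). The CpG on the same strand 5 bases away was lower too, at 25.3% ± 6.81 (SD, n = 3) against 63.7% ± 11.8 (SD, n = 3). It had the same range of 20 to 44 reads, and close sites on 1 strand can share reads. The CpG on the other strand 4 bases away was also lower, at 19.3% ± 16.7 (SD, n = 3) against 58.3% ± 14.2 (SD, n = 3). Another listed CpG on the same strand, 32 bases away, was lower as well but had only 10 to 22 reads. FUBP3, which encodes a protein that binds single-stranded nucleic acids, had 30%, 8% and 26% against 37%, 67% and 54% in an intron. Its lowest low OC sample was only a little above its highest high OC sample. CSF2RA, a subunit of the receptor for the growth factor GM-CSF, had 4%, 0% and 2% against 35%, 29% and 9% in an intron. There, low OC replicate 3 was far closer to the high OC samples than to the other low OC samples. PRKCE, a protein kinase C, had 17%, 19% and 26% against 35%, 31% and 32%, a small gap with methylated reads in every sample.

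At the remaining deep sites in genes the lower group had a mean of at most 3%. SFRP1, a secreted antagonist of WNT, had 9%, 0% and 0% in high OC and 10%, 16% and 18% in low OC skin, with high OC replicate 1 close to low OC replicate 1. KAT6B, a histone acetyltransferase, had 0%, 0% and 4% against 10%, 10% and 17%, and DCAF11, a substrate receptor of a ubiquitin ligase, 4%, 0% and 0% against 8%, 14% and 14%. MYO15A, a myosin of the inner ear, was at 0% in each high OC sample and at 8%, 11% and 12% in the low OC samples. In the other direction the low OC samples were all at 0% in BARX1, a homeobox gene (13%, 8% and 9% in high OC), in the tyrosine kinase gene FRK (15%, 5% and 11%) and in EFNB2, a membrane-bound ligand of Eph receptors (8%, 11% and 15%). Genes with the names LOC103010286, LOC103017395 and LOC103020991 had 0% in each high OC sample and low OC means of 10% to 14.7%. Of the 16 deep sites in genes, 11 were lower and 5 higher in high OC skin.

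**Figure D4:**
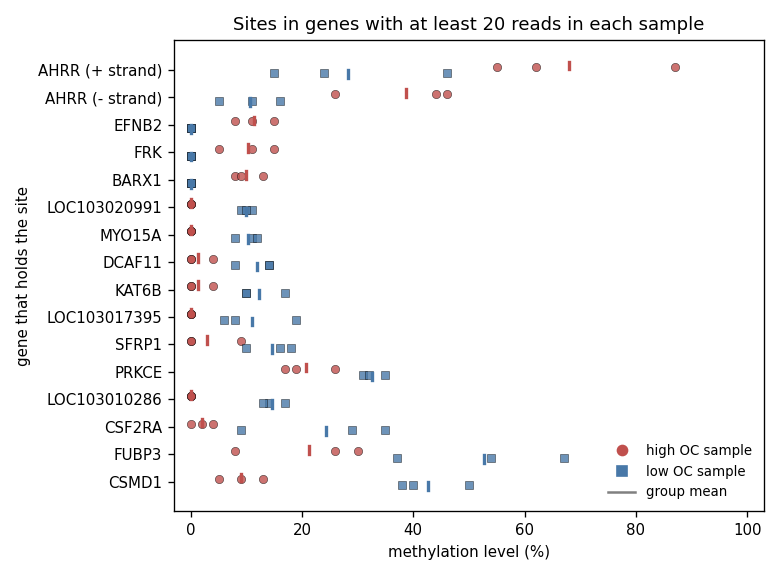
Methylation level (%, x axis) of the 16 isolated low CHH sites that lie in a gene (y axis) and had at least 20 reads in each sample. Circles are the 3 high OC samples, squares the 3 low OC samples and bars the group means. The 2 AHRR sites are the only ones with high OC means over 30%, and those of CSMD1 and FUBP3 are the only ones with low OC means over 40%.

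Among the 442 sites where every sample had 10 reads or more, the one with the largest difference in a promoter or exon was in SIPA1, which switches off the GTPase RAP. The site was annotated to both promoter and exon and stood at 7%, 27% and 0% in high OC and 53%, 69% and 67% in low OC skin. The groups were far apart (-51.7 points), with high OC replicate 2 nearest to the low OC samples. All 4 listed CpG sites of SIPA1 had the opposite direction, the nearest 91 bases away on the other strand at 100% ± 0 (SD, n = 3) in high and 87% ± 4.58 (SD, n = 3) in low OC skin. FAM170B had an exon site at 0% in each high OC sample and at 23%, 23% and 31% in the low OC samples. It lay among listed CpG sites, of which all 13 in the gene were lower. RECQL5, a DNA helicase, also had 0% in all high OC samples, against 29%, 11% and 20%, with even coverage in every sample. MYH15, a myosin heavy chain, had an exon site at 62%, 62% and 56% in high OC and 0%, 0% and 45% in low OC skin. Low OC replicate 3 stood close to the high OC samples there, and without it no low OC reads were methylated. CTBP1, a transcriptional corepressor, had 47%, 44% and 25% against 4%, 0% and 0%. Of the 3 listed CpG sites of CTBP1, 1 was higher and 2 were lower. The site in FAM136A, annotated to both promoter and exon, had 15%, 17% and 20% against 0% in each low OC sample. A site in GNG7, a G protein subunit, lay in the promoter of a transfer RNA name, TRNAG-UCC, which can stand for many gene copies and is uncertain.

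In introns the largest difference among these 442 sites was 66 points. This site was in MLC1, a membrane protein of glial cells, and had 100%, 56% and 92% in high OC and 14%, 36% and 0% in low OC skin. The groups did not overlap, but each spread over more than 30 points. PHACTR3, which binds actin and protein phosphatase, had 38%, 83% and 44% against 0%, 0% and 12%, and SVOP, a protein of synaptic vesicles, 50%, 12% and 56% against 0% in each low OC sample. TPRN, a protein of hair cell stereocilia, had 61%, 65% and 55% against 14%, 25% and 44%. Lower in high OC skin was PARN, a ribonuclease that trims poly(A) tails, at 0% in each high OC sample and 58%, 47% and 45% in the low OC samples, over 16 to 40 reads. No read of the high OC samples was methylated there. SMARCA2, an ATPase of chromatin remodelling, had 0%, 17% and 29% against 75%, 67% and 54%, and POLM, a DNA repair polymerase, 36%, 40% and 0% against 91%, 77% and 55%. The coverage was even in all 6 samples at the sites in MLC1, PHACTR3, SVOP, PARN and SMARCA2.

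Listed CpG sites of these genes did not all share the direction of the CHH site. For SVOP the CpG 22 bases away on the other strand was lower, at 83.3% ± 5.03 (SD, n = 3) in high and 96.3% ± 6.35 (SD, n = 3) in low OC skin, while the CHH site was higher. PHACTR3 had 4 higher and 17 lower CpG sites, the nearest 10337 bases from its higher CHH site. MLC1 had 3 higher and 6 lower, the nearest 967 bases from its higher CHH site. The 1 listed CpG of PARN was higher, but lay 97633 bases from the lower CHH site. In SMARCA2, 6 of 7 listed CpG sites were lower, as the CHH site was. TLX1, a homeobox gene of spleen development, had 6%, 29% and 0% against 36%, 57% and 36%. All 28 listed CpG sites of TLX1 were lower too, the nearest on the same strand 18 bases away at 17.7% ± 11.5 (SD, n = 3) against 49.3% ± 11.6 (SD, n = 3). Close sites on 1 strand can share reads, and this CpG and the CHH site both had 11 to 17 reads.

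Large differences were also found at sites with no gene. On NW_006725909_1 at start 12013704 the high OC samples had 47%, 100% and 57% and the low OC samples 0%, 0% and 7%. On NW_006731234_1 at start 11556523 the direction was the reverse, with 27%, 8% and 8% against 90%, 56% and 90%. Coverage was even in every sample at both sites. The deepest site of all, at start 2322 of NW_006734889_1, was very unevenly covered. Its low OC replicates 1 and 2 had 808 and 874 reads at a level of 1% each, and the other samples had 8 to 17 reads.

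Of the 1845 sites, 158 (8.56%, exact 95% interval 7.33% to 9.93%) lay in a promoter, 221 (11.98%) in an exon and 766 (41.5%) in an intron, where a site can have more than 1 such annotation, and 821 (44.5%) had no gene. Sites listed as higher and as lower had overlapping intervals in each location, with 8.63% and 8.5% in promoters and 41.0% and 42.1% in introns. Placement differed with level. Of the 1594 sites with a mean under 10%, 9.47% (8.08% to 11.02%) lay in promoters and 42.9% (40.5% to 45.4%) had no gene, against 2.79% (1.13% to 5.66%) and 54.6% (48.2% to 60.9%) of the 251 sites with a mean of 10% or more. The 884 listed CHH sites of low level that had a neighbour within 50 bases were in promoters at 4.98% (3.64% to 6.62%), in introns at 48.4% and without gene at 34.3% (31.1% to 37.5%). The 487 listed CHH sites with a mean of 50% or more were in promoters at 2.67% and without gene at 51.5%. The intervals take sites as independent, and which share of all covered CHH sites lies in promoters was not analysed here.

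The sites were scattered over genes. They touched 913 genes, of which 809 held 1 site, 84 held 2 and 20 held 3 or more. Of the 104 genes with several sites, 31 had only higher, 25 only lower and 48 both kinds. MAD1L1, a protein of the spindle checkpoint, had the most, with 5 higher and 1 lower. At each of its 6 sites the lower group was at 0% in all samples, and the group means of the higher group lay between 10% and 14.3%. SCUBE1, a secreted and membrane-bound protein with EGF repeats, had 2 higher and 3 lower. Its site at start 6002102 of NW_006729790_1 stood out with 75%, 43% and 75% in high OC and 10%, 38% and 17% in low OC skin. Coverage there was 8 to 20 reads and even in every sample. GTF2IRD1, a transcription factor gene, had 2 higher and 2 lower, PTPRM, a receptor phosphatase of cell contacts, 2 and 2, PTPRN2, a phosphatase-like protein of secretory granules, 3 and 1, RPS6KA2, a ribosomal S6 kinase, 2 and 2, and SORCS2, a sorting receptor for neurotrophins, 3 and 1. ABCA1, which exports cholesterol to lipoprotein particles, had 2 higher and 1 lower.

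Of 16069 protein-coding symbols in the RefSeq table that are not LOC names, 760 (4.73%) held a site, and gene length and the number of covered CHH sites were not set against this. Of 38 neuronal and axon guidance genes, 11 held 21 sites, 11 higher and 10 lower. CACNA1C, a calcium channel gene, showed both directions. It had 0%, 11% and 0% against 60%, 43% and 22% at start 1237925 of NW_006726543_1, over only 5 to 16 reads. At start 1200350 it had 14%, 40% and 36% against 0%, 10% and 0%, over 8 to 14 reads. Of 26 genes of DNA methylation and chromatin, 4 held 4 higher and 2 lower sites. DNMT3A itself, which methylates CHH, had 22%, 22% and 12% against 0%, 10% and 0% in an intron, at only 5 to 10 reads. UHRF1 had 20%, 25% and 12% against 0% in each low OC sample in an exon, over 8 to 24 reads. Only 4, 2 and 2 reads were methylated there in the high OC samples. An intron site of UHRF1 had 1 methylated read in each high OC sample and 0% in the low OC samples. KMT2A, a histone H3 methyltransferase, had 1 methylated read of 6 in each high OC sample (17%) and 0% in the low OC samples. Among 47 developmental transcription factors HOXD3, LHX9, MEIS1, PAX6 and TLX1 held 2 higher and 3 lower, and among 34 WNT, Notch, Hedgehog and BMP genes 5 held 3 higher and 3 lower. Of 21 adipocyte and lipid genes, INSR, LRP1 and PLIN1 held 1 higher and 2 lower.

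Among markers of the cell types of skin few genes held a site, as among all genes. Of 28 keratinocyte genes only PKP1, a desmosome protein, held a site, which was lower, and of 11 endothelial genes only VWF, also lower. Of 17 fibroblast and matrix genes COL5A1 and ELN held 1 higher site each. None of the 12 melanocyte and 18 immune genes held one.

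Neighbouring listed sites read on the same strand mostly had the same direction. All listed sites were chosen by the same contrast in the same samples, and close sites on 1 strand share reads, so these shares are a description. For the sites with a mean under 10%, a listed CHG site within 50 bases on the same strand had the same direction at 85 of 85 sites, and at 47 of them (55.3%) the coverage was the same in all 6 samples. On the other strand, which is read from other molecules, only 3 such sites had a listed CHG that near, and 1 had the same direction. For the nearest listed CpG within 50 bases the direction was the same at 85 of 131 sites on the same strand (64.9%) and at 41 of 70 on the other (58.6%), and between 1000 and 10000 bases on the same strand it was the same at 47.2%. The sites with a mean of 10% or more shared the direction of the nearest listed CpG at 49 of 55 (89.1%) within 50 bases on the same strand and 15 of 21 (71.4%) on the other. A listed CpG or CHG site within 50 bases was found at 28.3% of the 251 sites of 10% or more and at 16.6% of the 1594 sites under 10%, and 1509 sites in all had none. The listed CpG sites next to the former had a median level of 44.5%, and those next to the latter 73.2%, on the same strand.

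**Figure D5:**
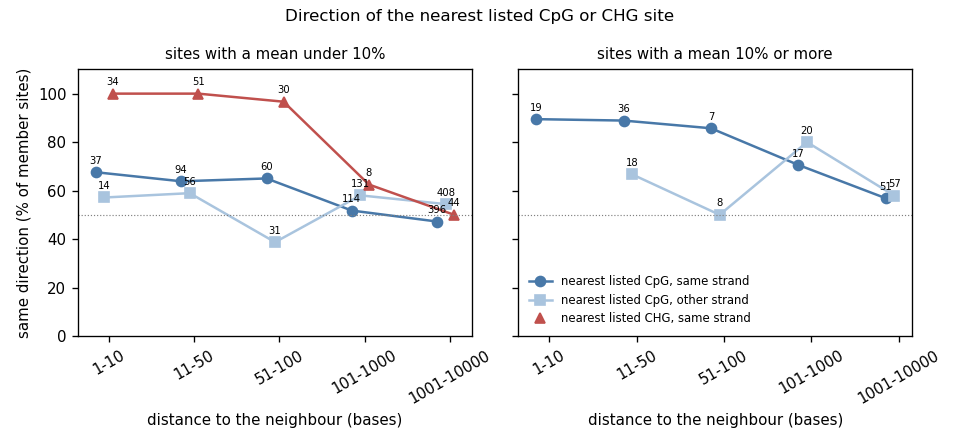
Share of isolated low CHH sites (%, y axis) whose nearest listed CpG or CHG site had the same direction, by distance (x axis, bases) and strand, for sites with a mean under 10% (left) and of 10% or more (right). Numbers at the points are the sites behind them (points with fewer than 5 are left out), and the dotted line marks 50%. CHG neighbours on the same strand (triangles) were at 100% within 50 bases for sites under 10%, and CpG neighbours on the same strand (circles) near 90% for sites of 10% or more.

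Isolation by 50 bases did not separate all sites from shared reads. Pairs of these sites 51 to 100 bases apart on the same strand numbered 31. All 31 had the same direction, 23 had the same coverage in all 6 samples, and 18 also had the same methylated reads. The pair in SORCS2, at starts 2383335 and 2383391 of NW_006725798_1, had 20%, 14% and 14% in high OC and 0% in each low OC sample at both sites, with the same reads. The pair in ABCA1 lay at starts 18678839 and 18678932 of NW_006726465_1, with 1 methylated read in each high OC sample and 0 in the low OC samples at both, and with coverage that differed by 1 read in 1 sample.

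Just inside the limits, the sites nearest to a mean of 50% stood at 49.8% (among them POLM, and UBE2H, a ubiquitin-conjugating enzyme), and the nearest outside at 50%. The shortest distance to another listed CHH site was 52 bases inside the rule, at 8 sites, and the longest outside was 48 bases, at 4 sites. With a median distance of 229830 bases, most sites had no listed CHH neighbour anywhere near.

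Depth at the sites overlapped between the groups. Mean coverage was 13.9, 12.4 and 13.4 reads in the high OC samples and 12.6, 13.0 and 12.2 in the low OC samples. Depth was not free of the choice of sites, since with few methylated reads only low coverage gives a difference of at least 0.1. Sites listed as higher and as lower were pooled here, so the test cannot separate depth from that choice. The difference of 0.603 reads between 13.2 ± 0.753 (SD, n = 3) and 12.6 ± 0.436 (SD, n = 3) had an exact two-sided permutation p of 0.3, where 0.1 is the lowest possible. Without the deepest site it was 0.903 reads (exact permutation p = 0.2). It was 0.274 reads without high OC replicate 1 and 1.01 reads without high OC replicate 2.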

How the data were processed

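Per the labels' protocols, MspI fragments of skin DNA from 6 samples went through bisulfite treatment, PCR and Illumina HiSeq sequencing. The submitters' processing notes name Bismark. No version, genome build, annotation, promoter reach or read filter is given in the sources used here. Per site and sample, the authors deposited the methylation level, a fraction with 2 decimals, and a read count, per the file headers. They also deposited a fraction for the difference between the groups and a p-value per site. All listed CHH sites had an absolute difference of at least 0.1 and a p-value of at most 0.05 in the deposited table. An equal-variance two-sample test on levels before rounding returned 99.9% of those p-values (within 0.02 on the log10 scale), so no adjustment for multiple sites is in them. Positions are printed as deposited, and their base (0 or 1) is not known.

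Methylated reads were taken as level times coverage, rounded, which returned all deposited levels within 0.005. At the 1845 sites coverage was at least 5 reads, with a median per sample of 10 to 12. No molecular identifier is mentioned in the labels, so intervals of reads take each read as independent and cover counting error only. Levels are printed as percentages, group values as mean ± SD of 3 samples, and intervals are exact binomial (Clopper-Pearson). The selection and the recovery of reads were checked on simulated data. Mean coverage and unselected levels were compared by exact two-sided permutation tests over samples, whose p-values measure only the spread between these samples. The sites and gene lists were chosen with earlier results of these data known. Apart from the set with at least 20 reads in each sample, named sites follow a rule: at least 10 reads in each sample, groups apart, 1 site per gene by size of the difference (in each direction 5 in promoters or exons, 5 in introns and 3 outside genes), the 8 genes with most sites, up to 20 genes of 13 lists and the 3 deepest sites, of which the text gives a part. The set with at least 20 reads was named outside this rule, after its values had been seen. Some items, among them the results of 2 lists, are not reported here. Of 913 gene names, 83.2% matched a symbol in RefSeq's table for the mBalPhy2.hap1.1 assembly, from which no coordinates were taken. Python 3.11.15, numpy 2.4.6, pandas 2.3.3 and scipy 1.17.1 were used.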

Additional observations from a re-analysis of the deposited data

How the results depend on the processing

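Depth limits these sites most. At least 10 reads in each sample left 442 sites, of which 38.9% lay in introns, and at least 20 left 46, of which 39.1% were higher in high OC, 28.3% lay in introns and 10.9% in a promoter or exon. With 1 sample left out, 1289 to 1359 of the 1845 sites still met the authors' limits. The share higher then ran from 47.7% (without low OC replicate 2) to 52.9% (without high OC replicate 1), and the median absolute difference from 12.2 to 12.5 points. An isolation distance of 500 bases, isolation on either strand, a mean limit of 0.3, coverage-weighted means and, added after the data were seen, leaving out sites with 6 even coverages moved no count by over 1.5 times and kept the median difference at 12 points and the share of higher sites between 50.1% and 51.1%. The difference in coverage ranged from 0.274 to 1.01 reads when a sample was left out and was 1 read between medians. That of unselected levels ranged from -0.0367 points (without high OC replicate 3) to 0.243 points (without high OC replicate 2) when a sample was left out, and kept its sign under the other alternatives. No paired analysis was possible because the labels give the groups no shared replicate numbers.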
